A study of Mus musculus with 17 samples.

Results

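BMP4 was compared with LDN in FOXA2-positive cells, in 5 of the series' 17 libraries chosen by their labels, 3 given BMP4 and 2 given LDN. The cells were R1 mouse embryonic stem cells of the genotype FOXA2-Venus, a single cell line, and the series concerns the floor plate of neural tube organoids. Both groups had 18 hours of retinoic acid (RA), then 6 hours without treatment, then 8 hours of BMP4 or LDN, so the times match. The LDN libraries are numbered 2 and 3, and no FOXA2-positive LDN library numbered 1 is among the 17. The labels give no doses. Libraries of FOXA2-negative cells with the same treatments (3 of BMP4, 3 of LDN) and of FOXA2-positive cells labelled with 18 hours of RA only (3) serve for comparison, and the latter differ from the treated groups in time as well as in treatment. The sources do not say whether a group's libraries stem from different cultures, and p-values then measure only a spread among libraries that could be technical.

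In FOXA2-positive cells, 8 hours of BMP4 or of LDN after retinoic acid left a set of 57 genes at different levels, 42 of them higher with BMP4 and 15 lower. Id1, Id2, Id3, Smad7, Msx2, Nog and Tbx3 were all higher with BMP4, by 10.1-fold (Id3) to at least 164-fold (Msx2, which had no counts with LDN). The glucose transporter gene Slc2a1 had the smallest adjusted p of the genes that were lower with BMP4, by 2.99-fold. The floor plate gene Foxa2 itself did not pass the test, and none of the 14 floor plate genes tested did, though their median log2 fold change was -0.58.

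BMP4 is a secreted ligand of the bone morphogenetic protein family. It binds paired type I and type II receptor kinases, which phosphorylate SMAD1, SMAD5 and SMAD9. These proteins join SMAD4 and bind DNA at target genes such as the ID genes, whose products block basic helix-loop-helix transcription factors. LDN is a name used in the field for small inhibitors of the BMP type I receptor kinases, and the labels do not say which compound was used. In the neural tube BMP signals come from the dorsal side and the overlying ectoderm, whereas the floor plate is the ventral midline, which makes Sonic hedgehog.

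The 5 libraries held between 8811202 and 10796136 counts in genes and detected between 16139 and 17441 genes. Mitochondrial genes took 3.57% to 4.58% of the counts. Spearman correlations over 6669 genes averaging 20 CPM or more (CPM are counts scaled to library size) were 0.935 to 0.949 within a group and 0.913 to 0.931 between the groups, and no pair of libraries agreed to within counting noise. CPM below are scaled between libraries by TMM, a method that assumes most genes do not change.

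The label of the fraction was checked first. Foxa2, the forkhead transcription factor behind the reporter, stood at 27.4, 22.6 and 27.5 CPM in the BMP4 libraries and at 44.2 and 39.7 CPM in the LDN libraries. The FOXA2-negative libraries of these treatments held between 0 and 2.93 CPM, below every positive library. Within the positive fraction both LDN libraries were above all BMP4 libraries, but the log2 difference of -0.70 ± 0.67 (SE) did not pass the test (adjusted p = 0.875, edgeR's quasi-likelihood test with Benjamini-Hochberg adjustment). Shh, which encodes Sonic hedgehog, had no counts in the BMP4 libraries and stood at 0.189 and 1.08 CPM with LDN, too low to be tested. Ferd3l and Corin, genes of the mature floor plate, had no counts in any of the 5 libraries. The sum over all 18 floor plate markers was 174 to 189 CPM with BMP4 and 246.5 to 246.7 CPM with LDN, and the groups did not overlap. Of 14 floor plate genes tested, 10 had a negative log2 difference and 4 a positive one. The BMP4 libraries lay below both LDN libraries for 6 and above for 1. Over all tested genes they lay below for 10.8% and above for 11.6%, and the list was not tested as a set. The gene for the endoderm factor SOX17 was present in every library, at 33.4, 10.9 and 24.6 CPM with BMP4 and 33.5 and 57.5 CPM with LDN, and the sums over 21 endoderm markers overlapped, at 242 to 301 and 266 to 305 CPM. In bulk libraries fewer cells of a kind cannot be told apart from less RNA per cell.

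Of 17813 genes tested, the 57 called at an adjusted p under 0.05 are 0.32%, with 0.236% higher and 0.0842% lower with BMP4. The BMP4 and LDN libraries did not overlap for any of the 57, whereas over all tested genes they did not overlap for 22.4%. The median log2 fold change over all tested genes was 0.01, and the called genes lay on 20 chromosomes. Higher genes moved further, with a median log2 fold change of 2.88 and 29 of 42 past a fold of 4. The lower genes had a median of -1.61, and 4 of 15 passed a fold of 4. The number of calls depended on the LDN libraries, of which there are only 2. It was 32 without LDN replicate 2 and 37 without LDN replicate 3, and 20 of the 57 genes kept their call whichever of the 5 libraries was left out. Among them were Id1, Id2, Id3, Smad7, Msx2, Tbx3, Tbx3os1, Tfap2a, Gata3, Lef1, Urgcp, Zfp36l3, Peg3, Emb, Slc2a1, Gprc5c, Frat2, Tenm4 and Maml2. All 57 kept their sign under every alternative.

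**Figure D1:**
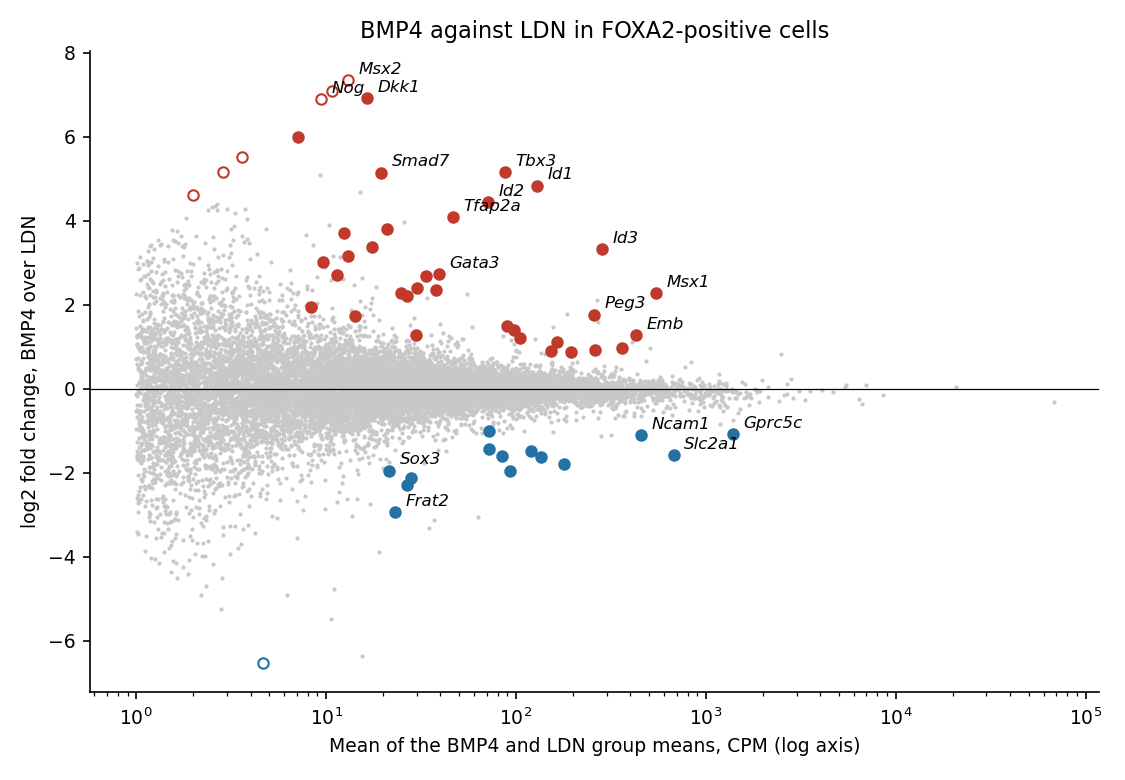
Each point is a gene, with its mean level in CPM on a log axis against its log2 fold change, BMP4 over LDN, in FOXA2-positive cells. Grey points (13903 genes are drawn in all, those averaging 1 CPM or more with over 3 counts in each group) did not pass the test, red genes were called higher and blue genes lower with BMP4, and open circles are called genes with no counts in one group, drawn at the bound of their fold. Id3 and Msx1 combine a high level with a large difference, and among the lower genes Mir124-2hg, at its bound, and Frat2 lie farthest from 0.

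Of the 4 ID genes, 3 were higher with BMP4. Id1 stood at 237, 238 and 274 CPM with BMP4 against 14.1 and 3.01 CPM with LDN, a fold of 28.6 (log2 4.84 ± 0.39 SE, adjusted p = 1.07e-07). Id2 stood at 143, 123 and 142 CPM against 6.34 and 6.02 CPM, a fold of 21.9 (log2 4.46 ± 0.31, adjusted p = 5.47e-10). Id3, the most abundant of them, stood at 549, 447 and 557 CPM against 49.9 and 53.1 CPM, a fold of 10.1 (log2 3.33 ± 0.23, adjusted p = 5.47e-10). In each gene every BMP4 library was far above both LDN libraries, and the LDN libraries retained a level that was low for Id1 and Id2 and moderate for Id3. The RA libraries lay between, at 66.3 to 82.5 CPM for Id1, 53.2 to 57.6 for Id2 and 186 to 207 for Id3. The family's remaining member, Id4, was near 0 throughout, between 0 and 1.99 CPM. The log2 fold change of Id1 was 6.36 without LDN replicate 2 and 4.15 without LDN replicate 3.

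The 250 bases before the start of 4 called genes, Id2 and Id3 among them, are shown because SMAD proteins are known to bind upstream of ID genes. GGCGCC is a GC-rich motif bound by BMP SMADs and reads the same on both strands. GTCTG, or CAGAC on the opposite strand, is the SMAD box. Both were searched as exact letters on both strands, and a match of the one can share at most 1 base with a match of the other. All 4 windows shown hold a match, whereas the windows of Msx1, Msx2, Dkk1 and Tfap2a, also called higher, hold neither motif. Sequences are RefSeq promoters of build GRCm38.p6, written 5′ to 3′ on the gene's strand, with matches in capitals. Id2 (chr12:25096093-25096342, minus strand) and Gata3 (chr2:9878601-9878850, minus strand) hold GGCGCC once, Id3 (chr4:136143572-136143821, plus strand) holds the SMAD box 2 times, and Slc2a1 (chr4:119108495-119108744, plus strand), the leading lower gene, holds it once.
Id2: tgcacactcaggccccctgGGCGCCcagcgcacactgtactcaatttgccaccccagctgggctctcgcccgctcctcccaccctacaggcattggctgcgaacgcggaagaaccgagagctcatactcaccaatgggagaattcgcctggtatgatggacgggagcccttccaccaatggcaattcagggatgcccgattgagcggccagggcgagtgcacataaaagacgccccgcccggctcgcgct
Gata3: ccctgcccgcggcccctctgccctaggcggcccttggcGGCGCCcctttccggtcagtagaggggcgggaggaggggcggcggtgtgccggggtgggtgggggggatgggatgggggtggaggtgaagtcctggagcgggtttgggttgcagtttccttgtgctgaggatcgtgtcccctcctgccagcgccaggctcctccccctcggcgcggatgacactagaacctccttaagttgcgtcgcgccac
Id3: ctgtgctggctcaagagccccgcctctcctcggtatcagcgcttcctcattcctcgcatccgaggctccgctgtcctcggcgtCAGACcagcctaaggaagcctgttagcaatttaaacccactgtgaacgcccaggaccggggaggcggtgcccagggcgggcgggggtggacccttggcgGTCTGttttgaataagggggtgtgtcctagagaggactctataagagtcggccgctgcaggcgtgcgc
Slc2a1: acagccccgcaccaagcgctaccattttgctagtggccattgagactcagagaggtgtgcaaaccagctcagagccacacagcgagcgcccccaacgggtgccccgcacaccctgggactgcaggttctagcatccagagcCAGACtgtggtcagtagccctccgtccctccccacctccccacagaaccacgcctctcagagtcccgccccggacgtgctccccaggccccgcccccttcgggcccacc

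Promoters were matched for 33 of the 42 higher genes and 9 of the 15 lower genes, and some genes have several starts. Windows of a gene can overlap, so that the same GGCGCC of Lef1 is counted more than once. GGCGCC was present in 12 of 40 windows of the higher genes (30.0%), in 0 of 13 windows of the lower genes and in 2460 of 15097 windows of all tested genes (16.3%). The SMAD box was present in 16 of 40 windows of the higher genes (40.0%), 7 of 13 of the lower genes (53.8%) and 6171 of 15097 of all tested genes (40.9%). The share of the higher genes with the SMAD box was close to that of all tested genes. A match is a description of these letters only.

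Feedback inhibitors of the pathway followed. Smad7 encodes an inhibitory SMAD that blocks the receptors, and it stood at 32.9, 51.5 and 29.8 CPM with BMP4 against 1.8 and 0.241 CPM with LDN (log2 5.15 ± 0.63, a fold of 35.5, adjusted p = 3.46e-05). The log2 fold change of Smad7 was 7.22 without LDN replicate 2 and 4.40 without LDN replicate 3, and called in both cases. Nog encodes Noggin, a secreted protein that binds BMP ligands, and it stood at 22.7, 17.8 and 16 CPM against no counts in either LDN library. Its level was at least 119-fold higher with BMP4, taking 3 counts over the LDN group as the floor (adjusted p = 0.00921). Without LDN replicate 2 or 3 the adjusted p of Nog was 0.142 or 0.133, so its call rests on both LDN libraries. Of the 9 inhibitory SMAD and feedback genes tested, Smad7 was the only one called, and the median log2 fold change was 1.11. Smad6, the other inhibitory SMAD, stood at 6.52, 17.8 and 9.6 CPM against 2.27 and 0.843 CPM (log2 2.84 ± 0.81, adjusted p = 0.207). Bambi, which encodes a decoy receptor, stood at 22.4, 24.7 and 32.6 CPM against 3.69 and 4.81 CPM (log2 2.64 ± 0.69, adjusted p = 0.128). Bambi passed under 5 of 13 alternatives, at 0.0182 by DESeq2, and Smad6 under 1, at 0.0171 by DESeq2. Neither gene's libraries overlapped between the groups. Among 14 BMP antagonists Nog was the only one called and the median was 0.33, while Chrd, which encodes Chordin, stayed between 0 and 3.85 CPM.

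The machinery upstream of these targets showed no call. None of 16 tested ligand, receptor and SMAD genes passed, and their median log2 fold change was -0.38. Smad1 stood at 31.3, 30.8 and 25.4 CPM with BMP4 against 31.7 and 38.8 CPM with LDN (log2 -0.27 ± 0.30, adjusted p = 0.906). The type I receptor gene Bmpr1a stood at 46.5, 46.2 and 30.6 CPM against 27.8 and 28.9 CPM (log2 0.54 ± 0.30, adjusted p = 0.712). The endogenous Bmp4 transcript was low in both groups, at 0.945, 4.71 and 7.17 CPM against 5.87 and 9.15 CPM (log2 -0.81 ± 0.94, adjusted p = 0.915). Bmp7 stood at 8.79, 4.29 and 10.1 CPM against 20.5 and 31.7 CPM (log2 -1.75 ± 0.47, adjusted p = 0.153). Smad9, an activating SMAD gene, was low with BMP4, at 3.4, 6.07 and 1.94 CPM, and without counts with LDN (adjusted p = 0.276).

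**Figure D2:**
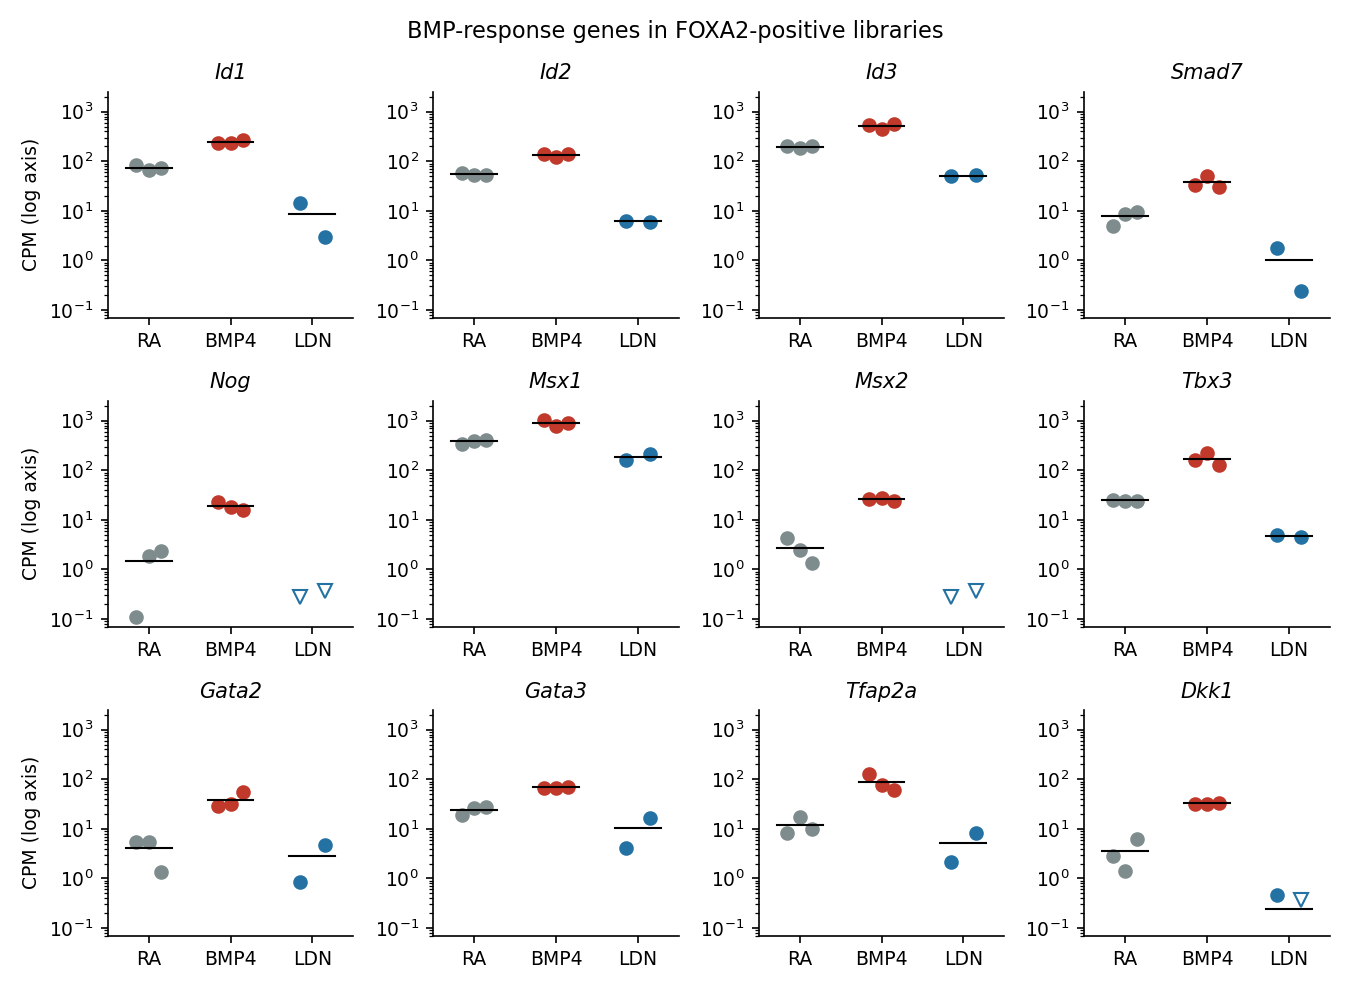
CPM on a log axis of 12 genes in the FOXA2-positive libraries of the RA, BMP4 and LDN groups. Points are libraries, bars are group means, and an open triangle marks a library with no counts, drawn at the level of 3 counts. For each of the 12 genes all BMP4 libraries lie above all RA and LDN libraries. All LDN libraries lie below all RA libraries for each gene but Gata2, Tfap2a and Nog. For Nog, RA replicate 1 (0.111 CPM) lies below the level at which the LDN libraries are drawn.

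Transcription factors known to be induced by BMP were the next group, with 5 of 21 tested genes called higher, none lower and a median log2 fold change of 2.12. Over all tested genes 0.236% were called higher. The log2 fold change was positive for 15 of the 21 and negative for 6. The BMP4 libraries lay above both LDN libraries for 13 and below for 3, against 11.6% and 10.8% of all tested genes. Msx1, a homeobox gene of the dorsal neural tube, stood at 1042, 781 and 891 CPM with BMP4 against 161 and 210 CPM with LDN (log2 2.28 ± 0.37, adjusted p = 0.00723). Its relative Msx2 stood at 26.6, 27.4 and 24.1 CPM against no counts in either LDN library, at least 164-fold higher (adjusted p = 1.8e-07). Tbx3, a T-box repressor gene, stood at 163, 220 and 125 CPM against 5.02 and 4.45 CPM, a fold of 35.7 (log2 5.16 ± 0.32), and had the smallest adjusted p of all genes, 1.93e-10. The antisense gene Tbx3os1 stood at 36.2, 19.3 and 9.31 CPM against no counts, at least 137-fold higher (adjusted p = 0.000706). The strand setting of the counting is not given in the sources used here, so reads of Tbx3 and Tbx3os1 cannot be told apart where they overlap. Without LDN replicate 2 or 3 the adjusted p of Msx1 was 0.197 or 0.133.

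Gata2 and Gata3, zinc finger genes of non-neural ectoderm, were also higher. Gata3 stood at 67.1, 66.8 and 71.4 CPM with BMP4 against 4.17 and 16.6 CPM with LDN (log2 2.73 ± 0.42, adjusted p = 0.000802). Gata2 stood at 28.7, 32.2 and 56.1 CPM against 0.852 and 4.81 CPM (log2 3.81 ± 0.76, adjusted p = 0.0294). LDN replicate 3 was above LDN replicate 2 for both genes, though below every BMP4 library. The call of Gata2 was lost without LDN replicate 2 (adjusted p = 0.247), without BMP4 replicate 3 (0.0675) and without both RA libraries numbered 1 (0.0518). The log2 fold change of Gata2 was 3.01 without LDN replicate 2 and 5.50 without LDN replicate 3, and that of Gata3 was 2.03 and 4.04. Dlx5, a distal-less homeobox gene, missed the threshold at 37.3, 15.8 and 17.8 CPM against 1.89 and 6.74 CPM (log2 2.47 ± 0.56, adjusted p = 0.0524). Hand1 stood at 23.5, 3.77 and 3.1 CPM against no counts (adjusted p = 0.482), with 1 high BMP4 library.

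Surface ectoderm markers included 6 called genes of 19 tested, all higher, with a median log2 fold change of 0.50, or 0.31 with genes that had no counts in one group set at their bound. The 6 were Gata2 and Gata3 (above), the AP-2 factor genes Tfap2a and Tfap2c, and the simple-epithelial keratin genes Krt18 and Krt19. Tfap2a stood at 129, 75.5 and 59.5 CPM with BMP4 against 2.18 and 8.43 CPM with LDN (log2 4.08 ± 0.53, a fold of 16.9, adjusted p = 0.000518). Tfap2c stood at 21.7, 26.5 and 17.3 CPM against 7.29 and 5.66 CPM (log2 1.75 ± 0.30, adjusted p = 0.00284). Krt19 stood at 46.4, 43.6 and 84.5 CPM against 5.87 and 12.2 CPM (log2 2.70 ± 0.43, adjusted p = 0.00111). Krt19 is also on the endoderm list, where it was the only call in 17 tested genes. Krt18 was tightly grouped at 248, 248 and 257 CPM against 136 and 137 CPM, but its difference was smaller (log2 0.88 ± 0.19, adjusted p = 0.0414). Among members of the same list that were not called, Epcam stood at 125, 133 and 151 CPM against 135 and 154 CPM (log2 -0.08 ± 0.16, adjusted p = 0.994), and Cldn6 at 72, 56 and 73.4 CPM against 60.7 and 65.6 CPM (log2 0.09 ± 0.22, adjusted p = 1). Cdh1, the E-cadherin gene, stood at 65.5, 48.8 and 77.5 CPM against 105 and 111 CPM (log2 -0.76 ± 0.21, adjusted p = 0.171, or 0.0457 by DESeq2). None of the 22 cadherin and junction genes tested was called. The BMP4 libraries lay below both LDN libraries for 5 of them and above for 1. Over all tested genes they lay below for 10.8% and above for 11.6%, and the list was not tested as a set.

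Summed over all 21 surface ectoderm markers the level was 889 to 1037 CPM with BMP4 and 576 to 686 CPM with LDN. The called genes Gata2, Gata3, Tfap2a, Tfap2c, Krt18 and Krt19 are part of these sums. Without them the sums of the groups overlap. Trp63, which defines stratified epidermis, had no counts in any of the 5 libraries. The sum over 26 markers of the dorsal neural tube and neural crest, to which Msx1 contributes most, was 1033 to 1325 CPM with BMP4 and 280 to 329 CPM with LDN. Of 20 such markers tested, 3 were called higher (Msx1, Msx2 and Tfap2a), and the roof plate genes Lmx1a, Wnt3a and Gdf7 stayed between 0 and 3.59 CPM. These markers' part in the differences was not tested, and 2 of the 26 dorsal markers were at 0 in all 5 libraries. The log2 fold change of Tfap2a was 3.37 without LDN replicate 2 and 5.34 without LDN replicate 3, and that of Krt19 was 3.31 without LDN replicate 3. Leaving out 1 library ended the call of Krt19 (adjusted p = 0.0979 without LDN replicate 2) and of Tfap2c (0.129 without LDN replicate 3). Krt18 lost its call whichever of the 5 libraries was left out, its adjusted p then being 0.117, 0.0957 and 0.129 without BMP4 replicates 1, 2 and 3 and 0.268 and 0.311 without LDN replicates 2 and 3.

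Pax3, a paired-box gene of the dorsal neural tube, stood at 33.1, 22.8 and 30.1 CPM against 3.69 and 9.15 CPM (log2 2.16 ± 0.53) and did not pass (adjusted p = 0.0834). The extraembryonic list had no call in 11 genes but a median of 1.65. Its most abundant member was the imprinted RNA H19, at 514, 491 and 302 CPM against 90.2 and 110 CPM (log2 2.12 ± 0.72, adjusted p = 0.503). H19 passed under 3 of 13 alternatives, at 0.000464 with the compared groups alone. Gata6 stood at 41.9, 34.8 and 9.99 CPM against 0.568 and 1.69 CPM (log2 4.69 ± 1.44, adjusted p = 0.349). It passed under 4 of 13 alternatives, at 0.00499 by DESeq2 and 0.00825 with the compared groups alone. Neither gene's libraries overlapped between the groups, and the list's summed level was 526 to 890 CPM with BMP4 and 285 to 302 CPM with LDN. Among 12 posterior HOX genes none was called and the median was 1.08. Hoxb8 stood at 15.7, 13.9 and 21.3 CPM against 7.76 and 5.54 CPM (log2 1.35 ± 0.61, adjusted p = 0.634).

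**Figure D3:**
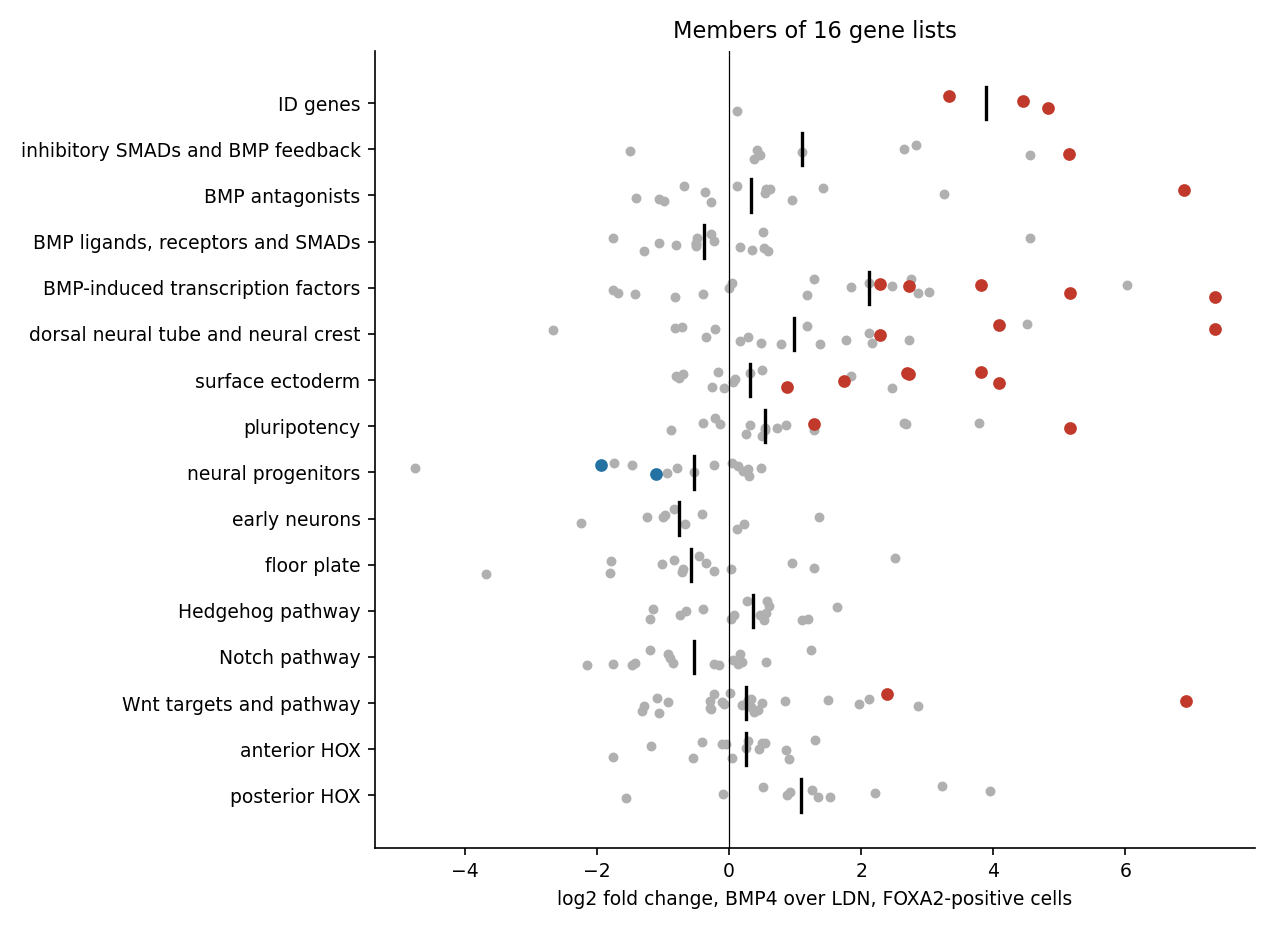
Each point is a member of 1 of 16 gene lists, placed by its log2 fold change, BMP4 over LDN, in FOXA2-positive cells. Red members were called higher and blue members lower, grey members did not pass, vertical bars are list medians, and members with no counts in one group stand at their bound (4 members with at most 3 counts in both groups are not drawn). Called members lie to the right for ID genes, BMP-induced factors and surface ectoderm, and to the left only for neural progenitors.

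Other genes called higher fell outside these lists of BMP and ectoderm genes. Of 27 genes of the Wnt list, 2 were called. Dkk1, a secreted Wnt inhibitor gene, stood at 32.4, 31.5 and 33.8 CPM with BMP4 against 0.473 and 0 CPM with LDN (log2 6.93 ± 1.29, adjusted p = 0.00953). Lef1, which encodes a nuclear partner of beta-catenin, stood at 54.4, 40 and 56.7 CPM against 7.57 and 11.7 CPM (log2 2.39 ± 0.35, adjusted p = 0.000469). The Wnt target Axin2 was similar in both groups, at 41.8, 50.2 and 43.1 CPM against 22.1 and 44.5 CPM (log2 0.44 ± 0.34, adjusted p = 0.797). Unc5b, a netrin receptor gene and the only call in 25 guidance genes, stood at 72.3, 70 and 48.6 CPM against 16.4 and 8.43 CPM (log2 2.35 ± 0.36, adjusted p = 0.000843). The call of Dkk1 was lost without LDN replicate 2 (adjusted p = 0.0771), which leaves LDN at 0, or 3 (0.224, log2 6.08), and that of Unc5b without LDN replicate 3 (0.0723).

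Urgcp stood at 12.8, 12.7 and 16.5 CPM with BMP4 against 0.379 and 0 CPM with LDN (log2 6.00 ± 0.78, adjusted p = 9.56e-05). Zfp36l3, an RNA-binding zinc finger gene, stood at 45.6, 19.8 and 29.5 CPM against 2.75 and 3.37 CPM (log2 3.37 ± 0.47, adjusted p = 0.000215). In both genes the LDN libraries were low and every BMP4 library was several times higher. Myl7, the gene of an atrial myosin light chain, was more scattered at 10.6, 20.8 and 38.1 CPM against 1.04 and 2.53 CPM (log2 3.71 ± 0.64, adjusted p = 0.00308), and lost its call without LDN replicate 2 (0.138). Its log2 fold change was 4.47 without LDN replicate 3, and that of Urgcp was 5.17. Peg3, Emb and Lbr are named after their values were seen. The imprinted zinc finger gene Peg3 stood at 330, 527 and 332 CPM against 115 and 118 CPM (log2 1.77 ± 0.24, adjusted p = 0.000215). Emb, which encodes the cell-surface protein embigin, stood at 657, 529 and 629 CPM against 241 and 255 CPM (log2 1.29 ± 0.20, adjusted p = 0.000802). Lbr, the lamin B receptor gene, stood at 218, 216 and 243 CPM against 113 and 96.6 CPM (log2 1.11 ± 0.16, adjusted p = 0.000518), and stood just outside the threshold without LDN replicate 3 (0.0534).

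The pluripotency list had 2 calls in 18 genes, Tbx3 and Klf5, and a median of 0.54. Klf5 stood at 45.6, 36.7 and 43.4 CPM with BMP4 against 19.8 and 14.7 CPM with LDN (log2 1.28 ± 0.28, adjusted p = 0.0425). Its call was lost without BMP4 replicate 1 (0.17), BMP4 replicate 3 (0.129), LDN replicate 2 (0.138) or LDN replicate 3 (0.563). Pou5f1, which encodes OCT4, was low in both groups, at 14.1, 10.8 and 15 CPM against 11.7 and 6.5 CPM (log2 0.54 ± 0.33, adjusted p = 0.746). A further called gene was Trib3, a stress-response pseudokinase gene, at 10.1, 3.88 and 7.76 CPM against no counts, at least 46.3-fold higher (adjusted p = 0.017). Its adjusted p was 0.2 without LDN replicate 2 and 0.191 without LDN replicate 3.

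Of the genes lower with BMP4, Slc2a1 had the smallest adjusted p. It encodes GLUT1, the basal glucose transporter, and stood at 313, 325 and 382 CPM with BMP4 against 1085 and 947 CPM with LDN (log2 -1.58 ± 0.14, adjusted p = 1.12e-07). Gprc5c, an orphan receptor gene of a retinoic acid-inducible family, stood at 954, 969 and 756 CPM against 1828 and 1940 CPM (log2 -1.08 ± 0.17, adjusted p = 0.00106). Both genes were abundant, and their lowest LDN library was well above their highest BMP4 library.

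Related genes of the FRAT family, whose products bind the kinase GSK3 and favour Wnt signalling, were lower together. Frat2 stood at 3.21, 3.98 and 8.82 CPM with BMP4 against 40 and 41.3 CPM with LDN (log2 -2.93 ± 0.46, a fold of 7.6, adjusted p = 0.00106). Frat1, its neighbour on chromosome 19, stood at 69.5, 82.1 and 49.1 CPM against 207 and 201 CPM (log2 -1.61 ± 0.32, adjusted p = 0.0164). The imprinted Peg12, also called Frat3, stood at 84.9, 81.6 and 74.2 CPM against 243 and 311 CPM (log2 -1.79 ± 0.33, adjusted p = 0.0107). How reads that map to more than one of these similar genes were treated is not given, so their values are uncertain to that extent. Frat2 kept its call with any library left out. Frat1 lost it without BMP4 replicate 1 (0.0727) or 3 (0.119) or LDN replicate 2 (0.138) or 3 (0.145), and Peg12 without BMP4 replicate 2 (0.071) or 3 (0.0794) or LDN replicate 2 (0.0514) or 3 (0.184).

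Of 15 neural progenitor genes tested, 2 were called lower, Sox3 and Ncam1, none higher, and the median was -0.53. Sox3, a neural SOX gene, stood at 12.2, 9.01 and 5.33 CPM with BMP4 against 37 and 31.2 CPM with LDN (log2 -1.95 ± 0.42, adjusted p = 0.0316). Ncam1, the neural cell adhesion molecule gene, stood at 277, 386 and 208 CPM against 565 and 681 CPM (log2 -1.10 ± 0.24, adjusted p = 0.0497). Gap43, a growth cone gene, stood at 46.5, 42 and 56.2 CPM against 93.4 and 98.7 CPM (log2 -0.99 ± 0.20, adjusted p = 0.018). Sox2 missed the threshold narrowly, at 57.1, 65.6 and 62.4 CPM against 115 and 122 CPM (log2 -0.94 ± 0.21, adjusted p = 0.0524). Sox1 stood at 8.22, 12.1 and 9.31 CPM against 35.1 and 30.9 CPM (log2 -1.74 ± 0.43), and Sox21 at 1.13, 0 and 1.16 CPM against 22.4 and 19.9 CPM (log2 -4.76 ± 1.17), each with an adjusted p of 0.0937. For each of these 6 genes, of which Gap43 is not on the list, both LDN libraries lay above all BMP4 libraries. Of the 15 list genes, the BMP4 libraries lay below both LDN libraries for 8 and above for 2. Over all tested genes they lay below for 10.8% and above for 11.6%, and the list was not tested as a set. The log2 difference was negative for 9 of the 15 and positive for 6. Pan-neural genes such as Nes (107, 91.5 and 57.1 CPM against 78.6 and 60.2 CPM) and Cdh2 (23.5, 24 and 21.9 CPM against 20.5 and 21.7 CPM) had log2 differences of 0.29 ± 0.28 and 0.13 ± 0.41.

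The 3 neural calls depended on single libraries. Sox3 was not called without BMP4 replicate 2 (0.11) or 3 (0.192) or LDN replicate 2 (0.23) or 3 (0.133). Ncam1 was not called without BMP4 replicate 1 (0.215) or 3 (0.201) or LDN replicate 2 (0.136) or 3 (0.537), nor Gap43 without BMP4 replicate 1 (0.0983) or 2 (0.11) or LDN replicate 2 (0.119) or 3 (0.217). In the opposite direction, Sox2 passed at 0.0481 with RLE scaling and at 0.00698 with DESeq2. The summed level of all 16 neural progenitor markers was 1921 to 2460 CPM with BMP4 and 2529 to 2589 CPM with LDN, without overlap. Ncam1 is part of this sum, at 208 to 386 CPM with BMP4 and 565 to 681 CPM with LDN. Without Ncam1 the sums of the groups overlap.

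Further lower genes were spread over signalling and membrane functions. Maml2, which encodes a co-activator of Notch, stood at 43.1, 39.9 and 32 CPM with BMP4 against 146 and 150 CPM with LDN (log2 -1.95 ± 0.33, adjusted p = 0.00217). Tenm4, a teneurin gene, stood at 28.7, 39.7 and 58.7 CPM against 129 and 125 CPM (log2 -1.59 ± 0.25, adjusted p = 0.00106). Map2k6, the gene of a kinase upstream of p38, stood at 12.9, 8.17 and 10.1 CPM against 51.1 and 39.8 CPM (log2 -2.13 ± 0.39, adjusted p = 0.00656). Smpd3, a sphingomyelinase gene, stood at 8.97, 10.1 and 8.14 CPM against 32.2 and 56 CPM (log2 -2.28 ± 0.41, adjusted p = 0.00518). Nr2f2, which encodes the nuclear receptor COUP-TFII and is on the retinoic acid list, stood at 78.6, 65 and 47.2 CPM against 165 and 188 CPM (log2 -1.47 ± 0.32, adjusted p = 0.0363). Prune2 stood at 42.4, 41.3 and 33 CPM against 96.7 and 112 CPM (log2 -1.43 ± 0.31, adjusted p = 0.0367). The fifteenth gene, Mir124-2hg, is the host transcript of a neuronal microRNA and is named after its values were seen. It had no counts in the BMP4 libraries and stood at 7.86 and 10.7 CPM with LDN, at least 92.5-fold lower with BMP4 (adjusted p = 0.017).

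Maml2 and Tenm4 kept their calls with any library left out. Map2k6 lost its call without BMP4 replicate 2 (0.0559) or LDN replicate 2 (0.125), and Smpd3 without LDN replicate 3 (0.245). Nr2f2 lost it without BMP4 replicate 2 (0.126) or 3 (0.192) or LDN replicate 2 (0.139) or 3 (0.329). Prune2 and Mir124-2hg lost theirs without any 1 of the 5 libraries, with adjusted p of 0.111 to 0.392 for Prune2 and 0.0636 to 0.111 for Mir124-2hg. Hedgehog and Notch genes held no call. Of 16 Hedgehog pathway genes tested, Ptch1, the receptor and target gene, stood at 71.1, 123 and 106 CPM against 55.1 and 79.3 CPM (log2 0.57 ± 0.46, adjusted p = 0.814), and the list's median was 0.37. Of 16 Notch pathway genes the median was -0.53, and Notch2 stood at 860, 899 and 790 CPM against 1411 and 1646 CPM (log2 -0.85 ± 0.23, adjusted p = 0.198). Notch2 passed under 4 of 13 alternatives, at 0.0378 by DESeq2 and 0.00707 with the compared groups alone.

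The RA libraries show on which side of the RA level the genes stood. Both contrasts with RA share the RA libraries, so their values are given side by side only. Each also shares its BMP4 or LDN libraries with the contrast that chose the genes. For 37 of the 42 higher genes the RA mean lay between the BMP4 and LDN means, for 4 above both and for 1, Krt18, below both. For the 15 lower genes it lay between in 11 and below both in 4, namely Ncam1, Prune2, Peg12 and Maml2. All these genes were chosen for a gap between BMP4 and LDN, which itself favours an RA mean between them. The share over all tested genes was not computed. Of the 42 higher genes, 12 were called higher in BMP4 than in RA and 17 lower in LDN than in RA, where 0.0674% and 0.135% of all tested genes were called in those directions. Of the 15 lower genes, 1 (Slc2a1) was called lower in BMP4 than in RA and 6 higher in LDN than in RA, against 0.0112% and 0.073% of all genes. Because the choice of genes used the same BMP4 and LDN libraries, larger shares than over all genes are favoured in advance. These counts are a description only.

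The ID genes and Tbx3 were on both sides. The BMP4 difference from RA was 1.76 (log2) for Id1, 1.31 for Id2, 1.39 for Id3 and 2.78 for Tbx3, and the LDN difference from RA was -3.07, -3.15, -1.94 and -2.37, all called (adjusted p at most 0.00587). Slc2a1 was 0.81 lower with BMP4 (log2 -0.81, adjusted p = 0.00394) and 0.77 higher with LDN (adjusted p = 0.0130). Tfap2a differed from RA with BMP4 (2.89, adjusted p = 0.00394) but not past the threshold with LDN (-1.19, adjusted p = 0.463). Maml2 was the reverse, at 0.10 with BMP4 (adjusted p = 1) and 2.04 with LDN (adjusted p = 0.00367). Krt18 was higher than RA with BMP4 (1.41, adjusted p = 0.000131) and not called with LDN (0.53, adjusted p = 0.32). The treated groups also differ from RA in time, so treatment and time cannot be told apart there. The calls against RA were fewer without most single libraries. They numbered 14 for BMP4 (0.0786% of tested genes), with 7 without BMP4 replicate 1, 15 without BMP4 replicate 3, and 9 without RA replicate 1 or without RA replicate 2. For LDN they numbered 37 (0.208%), with 23 without LDN replicate 2, 10 without LDN replicate 3, 23 without RA replicate 1 and 18 without RA replicate 3.

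**Figure D4:**
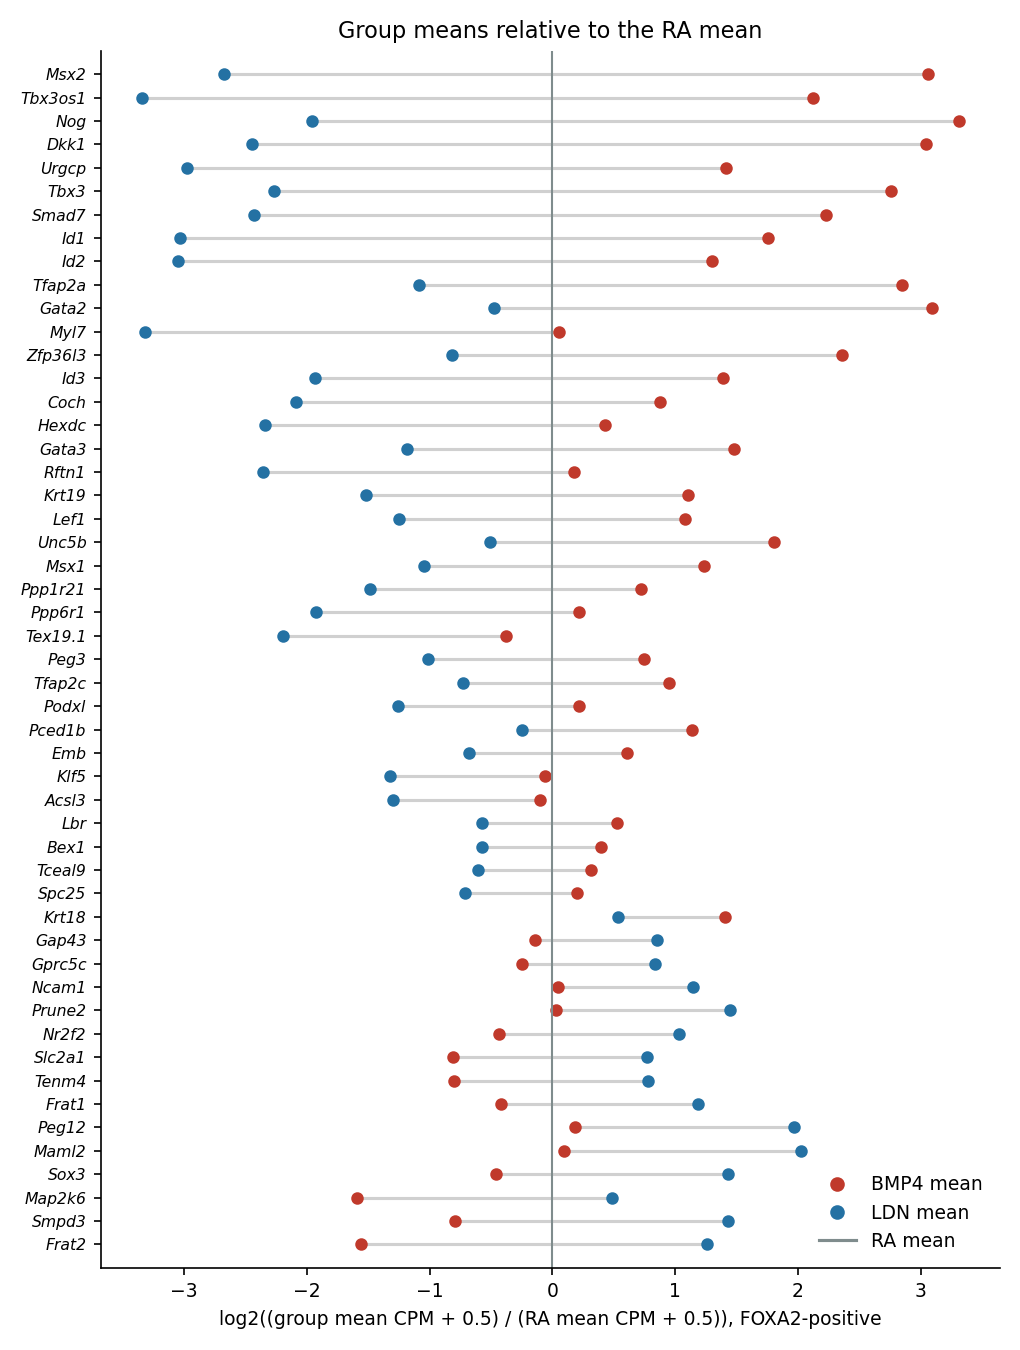
Group means of 51 called genes averaging 5 CPM or more across the compared groups, in FOXA2-positive cells, as log2 of the ratio to the RA mean with 0.5 CPM added to both. Red points are BMP4, blue points LDN and the vertical line the RA mean; for most genes the RA mean lies between, with BMP4 to the right for higher genes and to the left for lower genes.

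The same contrast in FOXA2-negative cells called 35 genes (0.196%), 22 higher (0.124%) and 13 lower (0.073%) with BMP4. The fractions shared 18 calls, 31.6% of the calls in positive and 51.4% of those in negative cells, and none had opposite directions. Of the 42 genes higher in the positive fraction, 34 had a positive log2 difference in the negative fraction, and all 15 lower genes had a negative one. Shared calls that were higher were Id1, Id2, Id3, Smad7, Msx1, Msx2, Tbx3, Tbx3os1, Tfap2a, Gata3, Unc5b, Emb, Lbr and Coch (an extracellular matrix gene named after its values were seen), and those lower were Slc2a1, Gprc5c, Frat2 and Gap43. For Id1 the log2 difference was 5.66 in negative and 4.84 in positive cells, and the difference between fractions was not called (-0.82 ± 0.45, adjusted p = 0.819). For Slc2a1 it was -1.42 and -1.58, again without a call (-0.16 ± 0.19, adjusted p = 1).

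**Figure D5:**
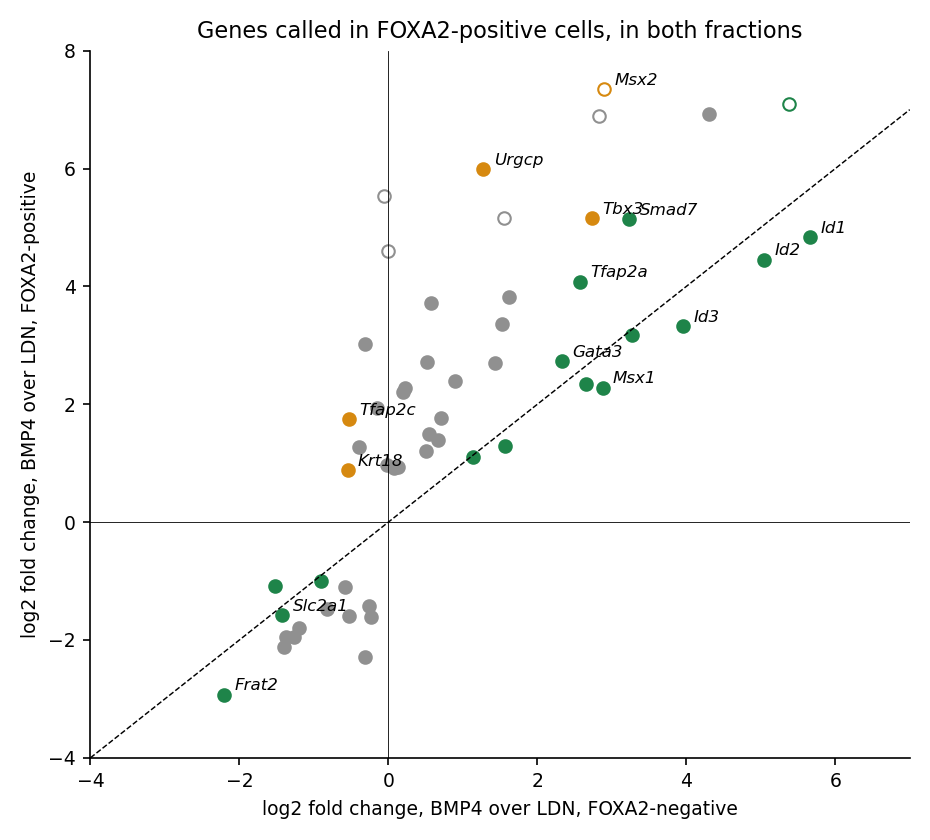
The log2 fold change, BMP4 over LDN, in FOXA2-negative cells (horizontal) against FOXA2-positive cells (vertical) for 54 of the 57 called genes, with Mir124-2hg and Ccdc88b among those left out. Orange genes differ between fractions by the test of the difference, green genes were called in both fractions, grey genes in the positive fraction only, and open circles stand at the bound of their positive fold. The dashed line marks equal values; the ID genes lie just below it and the orange genes above it.

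A test of the difference itself, the BMP4-LDN contrast in positive minus that in negative cells, called 6 genes (0.0337%), 5 of which are described here, all with the more positive BMP4-LDN difference in positive cells. Tbx3 differed by 2.43 on the log2 scale (± 0.36 SE, adjusted p = 0.00438). In negative cells it stood at 97.9, 119 and 98.6 CPM with BMP4 and 15.8, 19.7 and 12 CPM with LDN, so that positive cells were higher with BMP4 and lower with LDN. Msx2 stood at 23.4, 26.9 and 29.4 CPM with BMP4 and 3.46, 3.98 and 3.24 CPM with LDN in negative cells, where positive LDN cells had no counts (adjusted p = 0.00438). For Msx2 the fractions lay closer together with BMP4 than with LDN.

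Tfap2c and Krt18 had opposite signs in the fractions. Tfap2c stood at 50.4, 56.6 and 62.9 CPM with BMP4 and 65.9, 78.9 and 101 CPM with LDN in negative cells, a log2 difference of -0.53 (adjusted p = 0.699) against 1.75 in positive cells. Krt18 stood at 150, 176 and 173 CPM and 219, 224 and 286 CPM there, a difference of -0.55 (adjusted p = 0.36) against 0.88. Urgcp stood at 33.9, 17.2 and 24.7 CPM with BMP4 and 11, 6.51 and 13.8 CPM with LDN in negative cells. Of the 6, Tbx3 alone kept its call under every alternative. Msx2 lost its call without LDN-positive replicate 2 (adjusted p = 0.0721), and Tfap2c, Krt18 and Urgcp lost theirs without each of several libraries, with adjusted p up to 0.136, 0.155 and 0.259. Urgcp also lost its call with RLE scaling (0.0522), in a model of the compared groups alone (0.0799) and without both RA libraries numbered 1 (0.0511). Its value moved from 4.73 to 8.81 without LDN-positive replicate 2, which leaves that group at 0, and to 3.88 without LDN-positive replicate 3.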

How the data were processed

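The libraries were made by SMART-Seq v2, per the labels' protocols, from mouse cells with and without FOXA2. The authors deposited raw counts per Ensembl gene for each of 17 libraries. Tools named in the submitters' processing notes are HTSeq 0.11.2, cutadapt 1.18, DESeq2 1.26.0 and UMI-tools 1.0.0, with build mm10. Neither aligner, annotation release nor strand setting is given in the sources used here. Each table held 49671 genes and 5 summary lines, which took 50.3% to 52.8% of the tallied reads in the 5 libraries compared and were left out of totals and tests.

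The tests used edgeR 4.0.16 under R 4.3.3. filterByExpr (minimum count 10, minimum total 15) kept 17813 genes, and 1 robust quasi-likelihood model of 6 groups was fitted with TMM scaling and 11 residual degrees of freedom (common biological coefficient of variation 0.632). The contrasts were BMP4 minus LDN in each fraction, their difference, and each treatment minus RA in positive cells, with Benjamini-Hochberg adjustment and a threshold of 0.05. Every adjusted p is from edgeR's quasi-likelihood test unless DESeq2 is named. SE is the size of the log2 fold change over the square root of F. For a group at 0, folds were bounded by taking 3 counts, summed across that group, in its place. The script was tested on simulated data.

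The depth was 8435845 to 10796136 counts a library. Members and the 33 gene lists were chosen with earlier results of these data known, so lists are described by counts and medians. Named were called genes averaging 5 CPM or more with no overlap, up to 15 with the largest change in each direction, list members, and up to 5 genes of the difference between fractions. Others are said to be named after their values were seen. Symbols and gene positions come from GENCODE M21, promoters from RefSeq. Of the listed genes, 3 were not matched. Some genes are not reported here. Alternatives were DESeq2 1.42.0, RLE scaling, 2 other filters, models of the compared groups alone, a replicate block, leaving out both RA libraries numbered 1, and leaving out each library.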

Additional observations from a re-analysis of the deposited data

Results flagged for a closer look

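For the 5 genes given here the BMP4-LDN difference itself differed between the fractions by the interaction test of edgeR. The log2 difference in positive cells exceeded that in negative cells by 8.10 for Msx2 (adjusted p = 0.00438), a fitted value that depends on the prior count because positive LDN libraries had no counts. It exceeded it by 2.43 for Tbx3 (adjusted p = 0.00438) and by 2.28 for Tfap2c (adjusted p = 0.0130). For Krt18 the excess was 1.42 (adjusted p = 0.0324), with a sign change from -0.55 in negative to 0.88 in positive cells. For Urgcp it was 4.73 (adjusted p = 0.0490), a call lost with RLE scaling (0.0522), with the compared groups alone (0.0799), with a replicate block (0.0808) and without both RA libraries numbered 1 (0.0511). The value for Urgcp was 8.81 without LDN-positive replicate 2 and 3.88 without LDN-positive replicate 3.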

How the results depend on the processing

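All 57 called genes kept their direction under every alternative run. The count of calls for BMP4 against LDN in positive cells was 57, and 174 with DESeq2, 196 without a filter on low counts (26831 genes tested) and 95 with the compared groups alone. It was 60 with RLE scaling, 67 with the stricter filter, 83 without both RA libraries numbered 1, and 32 to 55 with 1 library left out. DESeq2, RLE scaling and both other filters called all 57 among theirs. Genes not called in the main model could also pass, such as Sox2 under 7 of 13 alternatives, Sox1 and Sox21 under 4 each and Pax3 under 2. In negative cells the count was 35, and 117 with DESeq2, 141 without a filter, 53 without both RA libraries numbered 1 and 25 to 36 with 1 library left out. The difference between fractions gave 6 calls, 34 with DESeq2, 54 without a filter and 3 to 7 with 1 library left out. BMP4 against RA gave 14 calls, 46 with DESeq2, 100 without a filter, 9 without both RA libraries numbered 1 and 7 to 15 with 1 library left out. LDN against RA gave 37, 209 with DESeq2, 294 without a filter and 10 to 35 with 1 library left out. The cause of these shifts was not tested, beyond the number of genes and samples that each alternative changes.

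Same-numbered BMP4 and LDN libraries of the positive fraction did not deviate together (r = -0.061 and -0.041 over 6669 genes). With only 2 LDN libraries the deviations mirror each other, so this cannot decide whether the numbers pair them. Between fractions, same-numbered libraries had r of 0.018, 0.071 and 0.074 with BMP4 and 0.054 and 0.056 with LDN. Differently numbered ones had -0.069 to 0.0056 and -0.056 to 0.00083. The main model treats all libraries as independent. With a replicate block the counts were 56 (52 of them shared with the 57), 33 in negative cells, 5 for the difference between fractions, 14 for BMP4 against RA and 41 for LDN against RA. The 5 calls lost with the block were Klf5 (0.0821), Nr2f2 (0.0675), Prune2 (0.0876), Ssc4d (0.0529) and Rftn1 (0.0504), and the 5 lost with the compared groups alone were Tfap2c (0.113), Klf5 (0.0913), Fcgrt (0.204), Tex19.1 (0.209) and Ccdc88b (0.055). A block in a model of libraries 2 and 3 of both groups gave 55, of which 40 were among the 57, so that 17 calls were lost, Gprc5c (0.0565), Krt18 (0.114), Ncam1 (0.125), Gap43 (0.210), Trib3 (0.334) and Tfap2c (0.354) among them. Levels of a few counts in the LDN libraries limit the folds of several genes to bounds.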

Other observations

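A further 15 genes were called higher in positive cells with BMP4, on no list and outside the naming rule, and Coch is one of them. The others are named here after their values were seen. Each lost its call without at least 1 of the 5 libraries. Podxl, which encodes the surface sialomucin podocalyxin, stood at 178, 99.3 and 119 CPM with BMP4 against 38.9 and 55.2 CPM with LDN (adjusted p = 0.00557, and 0.197 without LDN replicate 2 and 0.0555 without BMP4 replicate 1). Acsl3, a fatty acid CoA ligase gene, stood at 151, 159 and 129 CPM against 61.1 and 65.7 CPM (adjusted p = 0.0124, and 0.0501 to 0.181 without BMP4 replicate 1 or 2 or LDN replicate 2 or 3). Spc25, a kinetochore gene, stood at 204, 189 and 206 CPM against 105 and 107 CPM (adjusted p = 0.0102, and 0.162 and 0.160 without LDN replicates 2 and 3). These genes were abundant and all BMP4 libraries lay above both LDN libraries.

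Bex1 and Tceal9 lie close together on the X chromosome and belong to families of similar genes, so their counts are uncertain where copies share reads. Bex1 stood at 494, 510 and 435 CPM against 269 and 218 CPM (adjusted p = 0.00116, and 0.127 without LDN replicate 3). Tceal9 stood at 303, 362 and 361 CPM against 178 and 182 CPM (adjusted p = 0.00268, and 0.101 and 0.0735 without LDN replicates 2 and 3). Tex19.1, a germline gene, was low at 12.3, 13.1 and 14.2 CPM against 4.26 and 2.53 CPM (adjusted p = 0.0298, and 0.0602 to 0.446 with any 1 of the 5 libraries left out). Its RA libraries, at 13.2 to 23.3 CPM, lay mostly above those of both treatments. Ssc4d and Fcgrt had no counts with LDN and were at least 35.9-fold and 24.4-fold higher with BMP4. Hexdc, Rftn1, Ppp1r21, Ppp6r1, Pced1b and Ccdc88b complete the set.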
